A study of Homo sapiens with 24 samples.

Results

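The enzymes described here carry glycerol-3-phosphate to phosphatidate and on to diacylglycerol. They were chosen by biochemical role as 10 gene names, with earlier results of these data known. All 10 were found once each among the 58302 genes of the A549 table. A549 is an established human lung adenocarcinoma line. Polyadenylated RNA was sequenced from 4 groups of 3 libraries, and each group received a lentivirus. Vector cells carried the blank lentivirus and GPD1 cells a lentivirus that overexpresses GPD1, and each population was grown either without drug or in medium with 10 mM metformin. GPD1 is the cytosolic dehydrogenase that makes glycerol-3-phosphate from dihydroxyacetone phosphate and NADH, and metformin, a biguanide used in diabetes, inhibits mitochondrial respiration. The series addresses how GPD1 level bears on the growth of cancer cells, alone and together with metformin. How long the drug was given, which promoter drove the transgene and how many cultures were transduced is not stated by the labels. The p-values therefore rest on a spread between the 3 libraries within a group, pooled over the 4 groups, that may be technical. Other differences between the transduced populations cannot be told apart from GPD1 itself.

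Glycerolipid synthesis starts when an acyltransferase joins a fatty acid to glycerol-3-phosphate and forms lysophosphatidate. GPAM does this at the outer mitochondrial membrane, and GPAT3 and GPAT4 do it at the endoplasmic reticulum. The AGPAT enzymes add another fatty acid and give phosphatidate, which either enters the CDP-diacylglycerol branch toward cardiolipin and phosphatidylinositol or is dephosphorylated by the lipins LPIN1, LPIN2 and LPIN3. The lipin product, diacylglycerol, is the precursor of triacylglycerol and of the main membrane phospholipids. Inherited loss of AGPAT2 causes a generalized lipodystrophy in people, and LPIN1 and LPIN2 loss cause muscle and bone inflammatory disease, respectively.

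Levels are FPKM (fragments per exon kilobase and per M mapped, a per-length scale), a unit inferred from the values since no header gives one. Spacing of the low values puts the depth at 13.3 to 18.01 M fragments a library, with overlapping ranges in the 4 groups. By the same spacing the 10 genes rested on about 50 reads in the sparsest case (GPAM, GPD1 cells with metformin) to about 1357 in the densest (GPAT4, vector cells with metformin). GPD1 itself stood at 0.0248 to 0.103 FPKM in the vector libraries and at 13.3 to 16.8 FPKM in the GPD1 libraries. The A549 label was checked against 10 markers, of which 8 had a mean of at least 1 FPKM in every group, while KRT19 was near 0 and CDKN2A was listed at 0 in every library. Of 6 adipocyte markers none reached a mean of 1 FPKM, and ADIPOQ was listed at 0 throughout. Of 8 alveolar type 2 markers 1 did in every group, and of 8 leukocyte, endothelial and fibroblast markers 2 did. Of 6 kidney markers for 786-O, the other line of the series, 3 did in both untreated groups and 2 in both metformin groups. NNMT was the highest of these, at 31.1 FPKM in untreated vector cells, and no comparison with the 786-O libraries was made. Transcripts of the mitochondrial genome took 30.2% to 33.2% of all FPKM in untreated libraries and 10.3% to 14.9% with metformin. Of FPKM times exon length, the measure used for totals without these genes, they took 10.9% to 12.8% and 5.69% to 6.72%. Values from such totals are given below where they changed a call of the 10 genes, and for only some genes of the pathway lists. A lower level in a culture can come from fewer cells that express a gene or from less RNA per cell, which cannot be told apart.

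Of the 10 genes, 7 have at least 1 promoter window in the RefSeq tables used here (GRCh38.p14). GPAT4, AGPAT5 and LPIN3 are named only. The upstream sequence is shown for the gene with the largest fold decrease under metformin (GPAM), for the only gene of the 10 called higher by metformin in both populations (AGPAT2) and for the gene of the 10 with the largest interaction of GPD1 and metformin on the log2(FPKM + 1) scale (LPIN2). Capitals mark the GC box GGGCGG and the E-box CACGTG, searched on both strands, and adjoining GC boxes can overlap by a base. The GPAM and AGPAT2 stretches are the 250 bases before the RefSeq start. LPIN2 has more than 1 window, and its stretch is the 79 bases of 1 of them that precede the first exon annotated in GENCODE 29. In the other window (chr18:3011898-3012197) the 250 bases before the start held 0 GC boxes and 0 E-boxes.
GPAM, chr10:112183766-112184015, minus strand: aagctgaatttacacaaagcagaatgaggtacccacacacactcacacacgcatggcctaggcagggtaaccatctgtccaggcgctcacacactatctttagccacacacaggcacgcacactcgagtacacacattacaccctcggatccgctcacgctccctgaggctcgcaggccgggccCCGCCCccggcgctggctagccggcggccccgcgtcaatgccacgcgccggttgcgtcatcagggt
AGPAT2, chr9:136687458-136687707, minus strand: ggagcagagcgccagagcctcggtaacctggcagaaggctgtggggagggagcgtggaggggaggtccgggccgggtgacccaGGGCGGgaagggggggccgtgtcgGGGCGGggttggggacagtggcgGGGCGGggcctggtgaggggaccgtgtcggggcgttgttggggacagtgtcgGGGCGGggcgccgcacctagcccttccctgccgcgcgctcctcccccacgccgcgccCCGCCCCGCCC
LPIN2, chr18:3013316-3013394, minus strand: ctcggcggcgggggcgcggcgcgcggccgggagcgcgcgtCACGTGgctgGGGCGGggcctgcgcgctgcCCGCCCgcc
The 250 bases before the AGPAT2 start held 6 GC boxes, and those before the GPAM start held 1. At least 1 GC box stood in 65.9% of the 11933 windows of tested genes and 6 or more in 4.08%. An E-box stood in 8.51% of those windows and, among the 7 genes, only in a window of LPIN2. The GPAM window lies inside the longer gene model that the deposited table uses (10:112149864-112215377). The data do not show which start of GPAM or of LPIN2 was used in these cells.

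In untreated vector cells the most abundant of the 10 transcripts was AGPAT1, at 18.8 ± 0.113 FPKM (mean ± SD, n = 3 here and below), followed by AGPAT2 at 16.1 ± 0.457. LPIN2 (8.42 ± 0.166) and GPAT3 (8.18 ± 0.375) came next with overlapping libraries, then GPAT4 (7.25 ± 0.393), AGPAT5 (5.87 ± 0.874) and AGPAT3 (2.80 ± 0.0776). GPAM (2.31 ± 0.166) and LPIN3 (2.07 ± 0.335) overlapped, and LPIN1 was lowest at 1.72 ± 0.149. In GPD1 cells with metformin the order was another one. AGPAT2 led at 25.5 ± 1.61 FPKM, GPAT3 had moved up to 12.1 ± 0.761, close under AGPAT1 at 13.7 ± 0.695, and GPAM was last at 0.338 ± 0.0269.

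**Figure D1:**
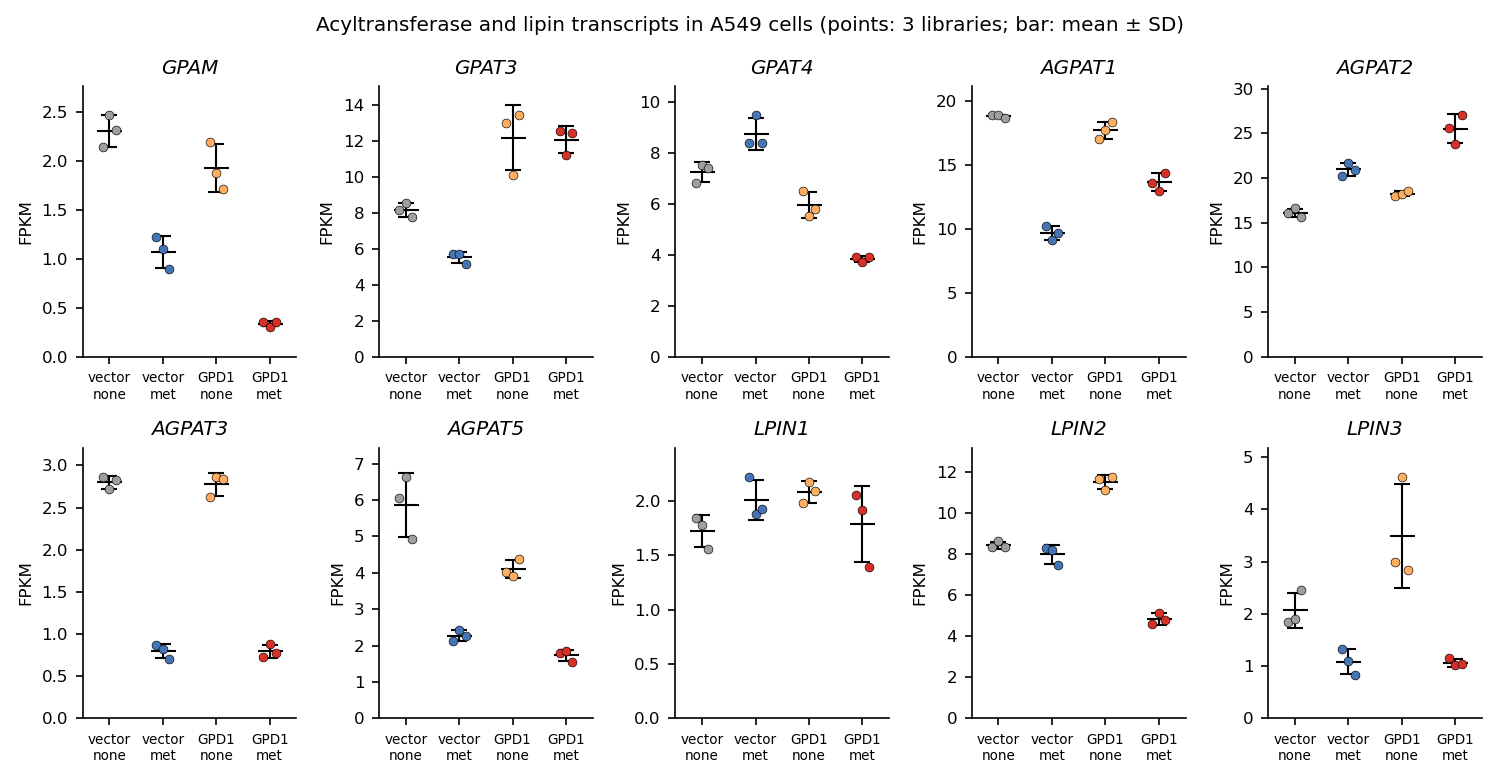
FPKM of the 10 transcripts (vertical axes, linear from 0) in the 4 groups of A549 libraries. Points are the 3 libraries of a group and bars the mean ± SD; GPAM, AGPAT3 and AGPAT5 are lower in every metformin library than in the untreated libraries of the same population, and AGPAT2 is higher.

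Each of the 10 genes averaged 1 FPKM or more across the 12 libraries and was tested among 12607 such genes on log2(FPKM + 1) with limma. P-values were adjusted by the Benjamini-Hochberg method within each comparison, and 0.05 was the threshold. A fold is the ratio of group means in FPKM, while a log2 change is on the log2(FPKM + 1) scale, which understates changes of weakly expressed genes. With metformin in vector cells 2 of the 10 passed as higher (GPAT4 and AGPAT2) and 6 as lower, where 74.6% of all tested genes passed, 31.3% higher and 43.3% lower. With metformin in GPD1 cells 1 passed as higher (AGPAT2) and 7 as lower, against 74.2% of all genes, 26.1% higher and 48% lower. The shares of the 10 that passed are therefore near those of all genes. Their median log2 change was -0.52 in vector cells and -0.71 in GPD1 cells, beside -0.10 and -0.20 over all tested genes. GPD1 cells differed from vector cells without the drug in 6 of the 10 (4 higher and 2 lower), against 21.3% of all genes, 9.99% higher and 11.3% lower. Under the drug they differed in 7 (3 higher and 4 lower), against 60% of all genes, 25% higher and 35% lower. The libraries of both groups did not overlap for 10, 8, 8 and 7 of the 10 genes in these 4 comparisons in order, where 76.6%, 77.1%, 41.4% and 64.8% of all tested genes did not overlap. The balance of all calls moved with the scale of the libraries. Higher calls were 42% of all calls for metformin in vector cells and 55.7% and 56.2% with median-ratio and upper-quartile factors, with medians over all genes of 0.09 and 0.10. For metformin in GPD1 cells they were 35.2%, and 53.7% and 61.6% with these factors, with medians of 0.06 and 0.16. For GPD1 under metformin they were 41.7%, and 62.2% with upper-quartile factors (median 0.13), and for the interaction described below 41.6%, and 61.5% with upper-quartile factors. With a length trend removed the shares of the same 4 comparisons were 49.4%, 51.1%, 54.3% and 54.7%. The comparisons of GPD1 with vector cells share libraries with those of metformin and are not separate evidence.

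**Figure D2:**
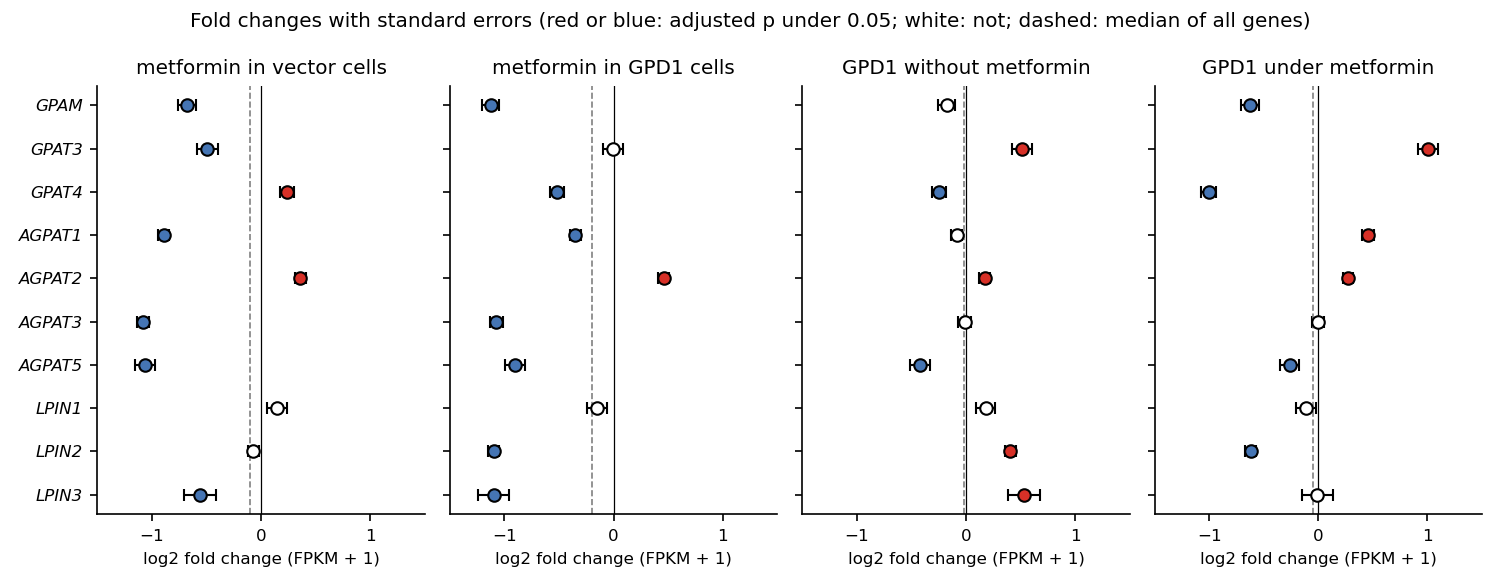
Log2 fold changes on log2(FPKM + 1) with standard errors for the 10 genes (rows) in 4 comparisons (panels). Red and blue points passed at an adjusted p under 0.05 and white points did not; the dashed line is the median of all tested genes, -0.10 and -0.20 in the metformin panels.

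The acyltransferases of the first step took separate courses. GPAM, the mitochondrial enzyme, was listed at 2.14, 2.47 and 2.32 FPKM in untreated vector cells and at 1.22, 1.10 and 0.892 with metformin. Its GPD1 libraries read 2.20, 1.88 and 1.72 FPKM untreated and 0.351, 0.307 and 0.356 FPKM treated. The metformin libraries lay below the untreated ones in both populations, and the GPD1 metformin libraries lay below all others. GPAM fell 2.16-fold in vector cells, a log2 change of -0.68 (SE 0.08; limma, adjusted p = 1.65e-05), and 5.70-fold in GPD1 cells, a log2 change of -1.13 (SE 0.08; limma, adjusted p = 3.07e-07). Untreated GPD1 and vector libraries overlapped (log2 difference -0.18, SE 0.08; limma, adjusted p = 0.153), while under metformin GPAM was 3.16-fold lower in GPD1 cells (limma, adjusted p = 5.57e-05). With a pseudocount of 0.1 in place of 1 the log2 changes of GPAM with metformin were -1.05 and -2.21, and the difference under metformin -1.41 in place of -0.63. The change in GPD1 cells was -0.74 with a trend over transcript length removed.

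GPAT3, an acyltransferase of the endoplasmic reticulum, was the gene of this step that stood higher in GPD1 cells. It was listed at 8.20, 8.55 and 7.80 FPKM in untreated vector cells and at 5.72, 5.71 and 5.17 with metformin. The untreated GPD1 libraries read 13.0, 10.1 and 13.5 FPKM and the treated ones 12.6, 11.2 and 12.5. All 6 GPD1 libraries lay above all 6 vector libraries, and the metformin and untreated GPD1 libraries overlapped. GPAT3 was 1.49-fold higher in GPD1 cells without the drug, a log2 difference of 0.52 (SE 0.09; limma, adjusted p = 0.00252), and 2.18-fold higher under it, a log2 difference of 1.00 (SE 0.09; limma, adjusted p = 4.54e-06). This second difference was larger than that of 98.5% of all tested genes. Metformin lowered GPAT3 in vector cells 1.48-fold (log2 change -0.49, SE 0.09; limma, adjusted p = 5.7e-04), and the log2 change was -0.27 with median-ratio and -0.26 with upper-quartile factors. In GPD1 cells its log2 change was -0.01 (limma, adjusted p = 0.963), and it turned to 0.30 (adjusted p = 0.0119) with median-ratio and 0.44 (adjusted p = 0.00116) with upper-quartile factors.

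GPAT4, the other acyltransferase of the endoplasmic reticulum, moved in opposite directions with the drug. It was listed at 6.80, 7.53 and 7.42 FPKM in untreated vector cells and at 8.38, 9.49 and 8.38 with metformin, so that the treated libraries lay above. GPD1 cells had 6.502, 5.53 and 5.81 FPKM untreated and 3.92, 3.70 and 3.91 FPKM treated, so that the treated libraries lay below. The rise in vector cells was 1.21-fold, a log2 change of 0.24 (SE 0.07; limma, adjusted p = 0.00677), and ran from 0.15 to 0.47 over the scalings of the libraries. The fall in GPD1 cells was 1.55-fold, a log2 change of -0.52 (SE 0.07; limma, adjusted p = 3.16e-05). It was -0.24 with median-ratio factors, and the call ended under upper-quartile scaling (-0.12; limma, adjusted p = 0.136) and with a trend over transcript length removed (-0.16; limma, adjusted p = 0.0594). Under metformin GPAT4 was 2.28-fold lower in GPD1 than in vector cells, a log2 difference of -1.01 (SE 0.07; limma, adjusted p = 3.46e-07), and without the drug 1.22-fold lower (limma, adjusted p = 0.0212), a call that ended with upper-quartile factors (limma, adjusted p = 0.052). It ended as well without replicate 2 or 3 of untreated vector cells or replicate 2 or 3 of untreated GPD1 cells, each left out alone (limma, adjusted p of 0.0676 to 0.081).

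GPAT3 and GPAT4 moved apart, and so did their parts of the step. Shares of the summed FPKM of the 3 genes are given per library, since no scaling of a library can move them. GPAT3 held 46.1% ± 1.68 of the GPAT level in untreated vector cells and 36.1% ± 1.15 with metformin, but 60.6% ± 3.24 in untreated GPD1 cells and 74.3% ± 0.537 with metformin. GPAT4 held 40.9% ± 1.33 and 57.0% ± 1.96 in vector cells without and with the drug, and 29.7% ± 1.92 and 23.6% ± 0.583 in GPD1 cells. GPAM went from 13.0% ± 0.458 to 6.96% ± 0.914 in vector cells and from 9.67% ± 1.33 to 2.08% ± 0.0560 in GPD1 cells. For each of these 3 genes the treated and untreated libraries of a population did not overlap in share. GPAT4 was the most abundant of the 3 in every vector metformin library, at 54.7% to 58.2%, and GPAT3 in every other library. The summed level itself was 17.7 ± 0.728 and 15.4 ± 0.927 FPKM in vector cells without and with metformin, and 20.1 ± 2.24 and 16.3 ± 0.911 FPKM in GPD1 cells. Unlike the shares, the sums of a step move with the scale of the libraries. They are given on the deposited scale only, and their direction with metformin under other scalings was not tested.

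**Figure D3:**
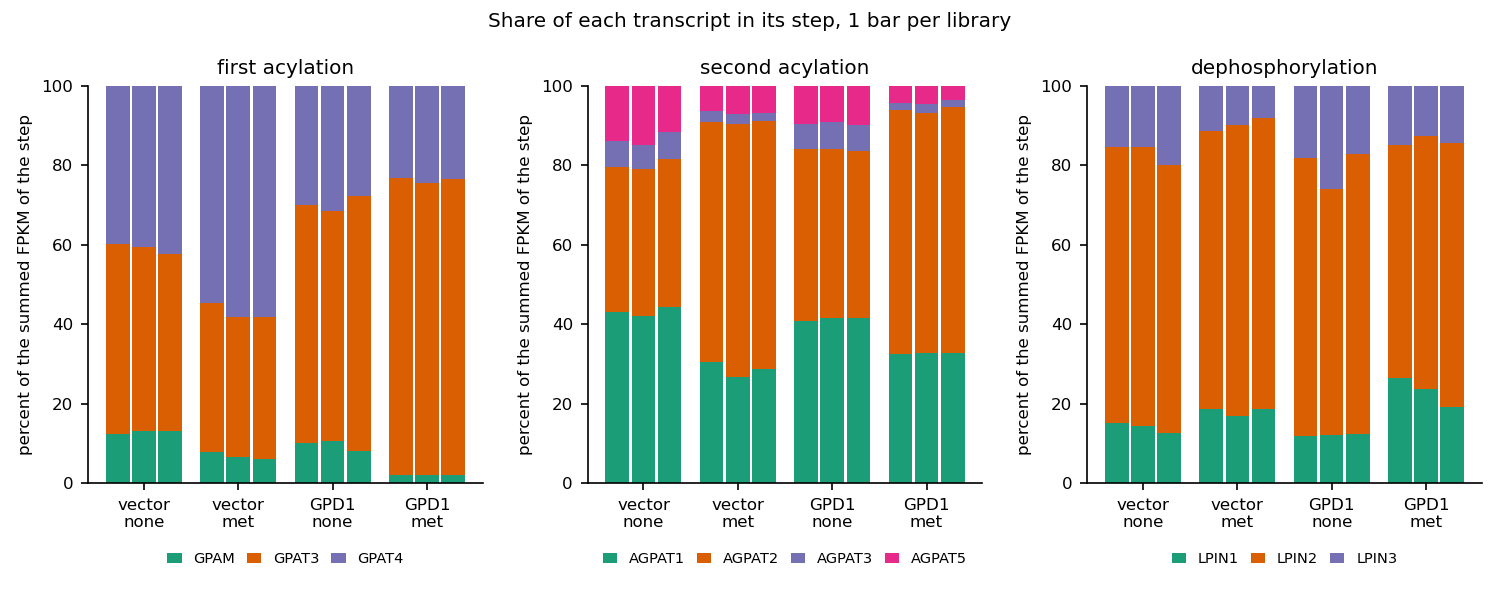
Percent of the summed FPKM of each step held by each transcript, 1 stacked bar per library and 3 bars per group, for the GPAT, AGPAT and lipin steps. GPAT3 held 36.1% of its step on average in vector cells with metformin and 74.3% in GPD1 cells with metformin, while AGPAT2 held 62.1% and 61.1% of its step in the same groups.

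At the second acylation AGPAT2 rose while AGPAT1, AGPAT3 and AGPAT5 fell with metformin. AGPAT2 was listed at 16.1, 16.6 and 15.7 FPKM in untreated vector cells and at 20.2, 21.7 and 20.9 with the drug. For GPD1 cells the values were 18.04, 18.2 and 18.6 FPKM untreated and 25.6, 23.8 and 27.0 FPKM treated. The 4 groups did not overlap, with untreated vector cells lowest and treated GPD1 cells highest. AGPAT2 rose 1.30-fold in vector cells (log2 change 0.36, SE 0.05; limma, adjusted p = 5.2e-05) and 1.40-fold in GPD1 cells (log2 change 0.46, SE 0.05; limma, adjusted p = 7.92e-06). Over the scalings these changes ran from 0.27 to 0.61 and from 0.38 to 0.92. In GPD1 cells it was 1.22-fold higher than in vector cells under metformin (limma, adjusted p = 6.98e-04), with a log2 difference of 0.27 that became 0.51 with upper-quartile factors, and 1.13-fold higher without it (limma, adjusted p = 0.0314). The last call ended with each of 5 libraries left out alone, all but replicate 2 of untreated vector cells (limma, adjusted p of 0.0645 to 0.0993), and when mitochondrial genes were dropped from the totals (limma, adjusted p = 0.0525).

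AGPAT1, which with AGPAT2 is the best characterized enzyme of this step, was listed at 18.9, 18.9 and 18.7 FPKM in untreated vector cells and at 10.3, 9.14 and 9.70 with metformin. Untreated GPD1 cells had 17.0, 17.8 and 18.3 FPKM and treated ones 13.6, 13.0 and 14.4. The treated libraries lay below the untreated ones in both populations, and treated GPD1 cells lay between the other groups. AGPAT1 fell 1.94-fold in vector cells (log2 change -0.89, SE 0.05; limma, adjusted p = 4.58e-08) and 1.30-fold in GPD1 cells (log2 change -0.35, SE 0.05; limma, adjusted p = 8.12e-05). The fall in GPD1 cells depended on the scale, at -0.04 and 0.10 under median-ratio and upper-quartile scaling (limma, adjusted p = 0.516 and 0.0919) and -0.14 once the length trend was removed (limma, adjusted p = 0.0291). Under metformin AGPAT1 was 1.41-fold higher in GPD1 than in vector cells (log2 difference 0.45, SE 0.05; limma, adjusted p = 1.96e-05), or 0.69 with upper-quartile factors. Of its merged exon bases 30.2% also belong to other annotated genes, nearly all to the readthrough gene PPT2-EGFL8 on the opposite strand. PPT2-EGFL8 had means of 1.13 and 0.288 FPKM in vector cells without and with metformin and 0.928 and 0.277 FPKM in GPD1 cells, and its part in the AGPAT1 values was not tested.

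AGPAT3, which also acts on lysophospholipids of other head groups, fell alike in both populations. It was listed at 2.87, 2.72 and 2.82 FPKM in untreated vector cells and at 0.872, 0.822 and 0.700 with metformin. The GPD1 libraries had 2.62, 2.87 and 2.83 FPKM untreated and 0.731, 0.876 and 0.777 FPKM treated. Treated libraries lay far below untreated ones, and the GPD1 and vector libraries overlapped in either state. The fall was 3.51-fold in vector cells (log2 change -1.08, SE 0.06; limma, adjusted p = 3.01e-08) and 3.49-fold in GPD1 cells (log2 change -1.07, SE 0.06; limma, adjusted p = 3.91e-08), or -1.70 and -1.69 with a pseudocount of 0.1, and -0.68 in GPD1 cells with the length trend removed. The difference between both falls was 0.01 log2 units (SE 0.08; limma, adjusted p = 0.948). GPD1 and vector cells differed by -0.01 log2 units without the drug (limma, adjusted p = 0.931) and by -0.00248 under it (limma, adjusted p = 0.973), and the latter turned to 0.16 with the length trend removed (limma, adjusted p = 0.0228). AGPAT3 has 11296 merged exon bases, against 1798 for AGPAT2.

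AGPAT5, a mitochondrial member of the family, was listed at 6.04, 6.64 and 4.92 FPKM in untreated vector cells and at 2.13, 2.43 and 2.26 with the drug. Untreated GPD1 libraries read 4.02, 3.92 and 4.37 FPKM and treated ones 1.797, 1.84 and 1.54. Treated libraries lay below untreated ones, and GPD1 libraries below vector libraries of the same treatment. AGPAT5 fell 2.58-fold with metformin in vector cells (log2 change -1.06, SE 0.09; limma, adjusted p = 1.04e-06) and 2.38-fold in GPD1 cells (log2 change -0.91, SE 0.09; limma, adjusted p = 4.21e-06), the latter -0.57 with upper-quartile factors. Without the drug it was 1.43-fold lower in GPD1 cells (log2 difference -0.42, SE 0.09; limma, adjusted p = 0.00679). The 1.32-fold lower level under the drug (log2 difference -0.26; limma, adjusted p = 0.0252) did not pass under 4 alternatives. They were median-ratio and upper-quartile factors (-0.20 and -0.11; limma, adjusted p = 0.0917 and 0.338), no filter (limma, adjusted p = 0.0585) and the length trend removed (-0.13; limma, adjusted p = 0.242). It did not pass either without vector metformin replicate 2 or 3 or GPD1 metformin replicate 3 (limma, adjusted p = 0.0817, 0.0516 and 0.0917).

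Within the AGPAT step AGPAT1 and AGPAT2 held 43.2% ± 1.15 and 36.9% ± 0.308 of the summed FPKM in untreated vector cells. With metformin AGPAT2 held 62.1% ± 1.64 in vector cells and 61.1% ± 0.809 in GPD1 cells, in ranges that overlapped. AGPAT3 went from 6.43% ± 0.332 to 2.37% ± 0.262 in vector cells and from 6.47% ± 0.217 to 1.91% ± 0.261 in GPD1 cells. AGPAT5 went from 13.4% ± 1.60 to 6.74% ± 0.389 and from 9.57% ± 0.377 to 4.16% ± 0.578. On the deposited scale the summed AGPAT level was 43.6 ± 1.37 and 33.7 ± 0.346 FPKM in vector cells without and with metformin. In GPD1 cells it was 42.9 ± 1.22 and 41.7 ± 2.098 FPKM, where the libraries of both states overlapped on that scale.

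LPIN2, a lipin, was higher in GPD1 than in vector cells without the drug and lower under it. It was listed at 8.33, 8.62 and 8.33 FPKM in untreated vector cells and at 8.28, 8.20 and 7.46 with metformin. Among GPD1 cells the untreated libraries read 11.6, 11.1 and 11.8 FPKM and the treated ones 4.57, 5.14 and 4.81. The untreated GPD1 libraries were the highest of all 12 and the treated ones the lowest, while both vector groups lay between them. In vector cells the log2 change with metformin was -0.07 (SE 0.05; limma, adjusted p = 0.237), and it depended on the scale, at 0.15 and 0.16 with median-ratio and upper-quartile factors (limma, adjusted p = 0.0247 and 0.0166) but -0.16 when mitochondrial genes were dropped from the totals (limma, adjusted p = 0.0178). In GPD1 cells LPIN2 fell 2.38-fold, a log2 change of -1.10 (SE 0.05; limma, adjusted p = 1.43e-08), or -0.68 with upper-quartile factors. It was 1.37-fold higher in GPD1 than in vector cells without the drug (log2 difference 0.41, SE 0.05; limma, adjusted p = 2.58e-04) and 1.65-fold lower under it (log2 difference -0.62, SE 0.05; limma, adjusted p = 2.07e-06). The E-box in the LPIN2 stretch printed above is a match of letters, and binding there was not measured.

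LPIN3 was listed at 1.85, 1.90 and 2.46 FPKM in untreated vector cells and at 1.33, 1.10 and 0.833 with metformin. GPD1 cells gave 2.9997, 4.63 and 2.84 FPKM untreated and 1.15, 1.01 and 1.03 FPKM treated. Treated libraries lay below untreated ones, and 1 untreated GPD1 library stood well above the other two. LPIN3 fell 1.91-fold in vector cells (log2 change -0.56, SE 0.14; limma, adjusted p = 0.00456), or -0.88 with a pseudocount of 0.1, and 3.28-fold in GPD1 cells (log2 change -1.10, SE 0.14; limma, adjusted p = 3.92e-05). Without the drug it was 1.69-fold higher in GPD1 cells (log2 difference 0.53, SE 0.14; limma, adjusted p = 0.0237). That call ended without the high library, GPD1 untreated replicate 2 (log2 difference 0.36; limma, adjusted p = 0.0591), without vector untreated replicate 1 or 2 (limma, adjusted p = 0.0803 and 0.0753), with no filter (limma, adjusted p = 0.0533) and in a fit of only these groups (limma, adjusted p = 0.0667).

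LPIN1, which also acts as a transcriptional coactivator in liver and muscle, passed in none of the 4 comparisons, at unadjusted p of 0.0755 to 0.23. It was listed at 1.84, 1.77 and 1.56 FPKM in untreated vector cells and at 2.22, 1.88 and 1.92 with metformin. Its values in GPD1 cells were 1.98, 2.17 and 2.095 FPKM untreated and 2.06, 1.91 and 1.39 FPKM treated. All 12 libraries lay between 1.39 and 2.22 FPKM. The log2 changes with metformin in vector and GPD1 cells were 0.14 and -0.15 (SE 0.09 each; limma, adjusted p = 0.173 and 0.154). The first passed with median-ratio and upper-quartile factors (0.30 and 0.31; limma, adjusted p = 0.0112 and 0.00925) and with the length trend removed (0.38; limma, adjusted p = 0.0017), and the second turned to 0.24 with the length trend removed (limma, adjusted p = 0.0227). Summed over the 3 lipins the level on the deposited scale was 12.2 ± 0.173 FPKM in untreated vector cells, 11.1 ± 0.815 with metformin, 17.1 ± 0.716 in untreated GPD1 cells and 7.69 ± 0.423 with metformin. LPIN2 held most of that sum in every library, from 58.8% to 73.3%.

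The interaction, which asks whether metformin acted differently in GPD1 and in vector cells, passed for 5 of the 10 genes, where 45.9% of all tested genes passed (19.1% higher and 26.8% lower). It was negative for LPIN2 (-1.03 log2 units, SE 0.07; limma, adjusted p = 2.44e-06), GPAT4 (-0.76, SE 0.09; limma, adjusted p = 8.89e-05) and GPAM (-0.45, SE 0.11; limma, adjusted p = 0.00799). It was positive for AGPAT1 (0.54, SE 0.07; limma, adjusted p = 1.48e-04) and GPAT3 (0.49, SE 0.13; limma, adjusted p = 0.011). LPIN3 (-0.54, SE 0.20; limma, adjusted p = 0.0502), LPIN1 (-0.30, SE 0.13; limma, adjusted p = 0.0842), AGPAT5 (0.16, SE 0.13; limma, adjusted p = 0.338) and AGPAT2 (0.10, SE 0.07; limma, adjusted p = 0.269) did not pass. For AGPAT2 it was 0.31 with upper-quartile factors (limma, adjusted p = 0.0103). For GPAM it was -1.16 with a pseudocount of 0.1 and -0.29 with the length trend removed (limma, adjusted p = 7.43e-04 and 0.046).

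**Figure D4:**
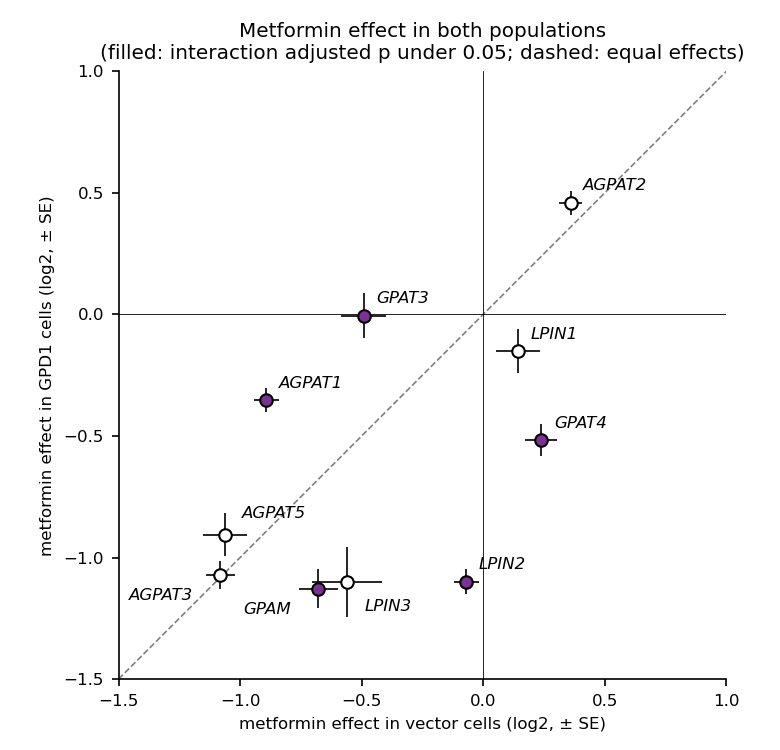
Log2 change with metformin in GPD1 cells (vertical axis) against that in vector cells (horizontal axis) for the 10 genes, with standard errors. Filled points passed the interaction test and the dashed line marks equal changes; AGPAT3 lies on it at -1.08 and -1.07, while LPIN2 lies at -0.07 and -1.10.

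The rest of the pathway was described by 9 lists of 80 genes, of which 58 were tested. The lists were chosen with earlier results of these data known, so their counts beside those of all genes are a description and no test. With metformin in vector cells 25 of the 58 rose and 18 fell, where 31.3% of all tested genes rose and 43.3% fell (median log2 change 0.00482, beside -0.10 over all genes). In GPD1 cells 21 rose and 17 fell, where 26.1% of all genes rose and 48% fell (median 0.05, beside -0.20). GPD1 cells differed from vector cells without the drug in 15 genes that were higher and 2 that were lower, against 9.99% and 11.3% of all genes, and under the drug in 20 and 18, against 25% and 35%. The counts for metformin moved with the scale of the libraries. In vector cells 31 rose and 5 fell with median-ratio or upper-quartile factors, and 20 rose and 24 fell when mitochondrial genes were dropped from the totals. In GPD1 cells 34 rose and 8 fell, 37 rose and 5 fell, and 17 rose and 19 fell under these scalings in the same order. The counts of each list below are on the deposited scale and are to be read against these shares of all genes, since each list is short. More of the 58 rose with median-ratio or upper-quartile factors than on the deposited scale. A gene said below not to pass, or given at like levels, can therefore pass as higher with them. More of the 58 fell when mitochondrial genes were dropped from the totals, so such a gene can also pass as lower there. The genes that newly passed as lower in that way are not named below.

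Of 4 other tested genes of the same steps 2 rose and 0 fell with metformin in vector cells, and 2 rose and 1 fell in GPD1 cells. The phosphatidate phosphatase genes PLPP1 and PLPP2 rose in both populations, PLPP1 from 7.62 to 11.4 FPKM in vector cells (limma, adjusted p = 4.2e-05) and from 9.66 to 13.5 FPKM in GPD1 cells (limma, adjusted p = 1.58e-04). PLPP3, of the same family, stood at 5.78 and 5.44 FPKM in vector cells without and with the drug (limma, adjusted p = 0.181) and fell from 8.49 to 6.24 FPKM in GPD1 cells (limma, adjusted p = 2.93e-05). The fall of PLPP3 did not pass with median-ratio or upper-quartile factors (-0.10 and 0.03). LCLAT1, an acyltransferase of lysocardiolipin, passed in neither population. GPAT2 and AGPAT4 fell short of the level tested, with at most 0.0291 and 1.04 FPKM in any library.

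Of 5 tested genes that supply glycerol-3-phosphate or its precursors, 1 rose and 3 fell with metformin in vector cells and 0 rose and 2 fell in GPD1 cells. GPD2, the mitochondrial dehydrogenase that oxidizes glycerol-3-phosphate, fell from 6.51 to 4.49 FPKM in vector cells (limma, adjusted p = 3.89e-06) and from 11.0 to 8.24 FPKM in GPD1 cells (limma, adjusted p = 2.01e-05). The fall of GPD2 in GPD1 cells did not pass with median-ratio or upper-quartile factors (-0.07 and 0.06). It was higher in GPD1 than in vector cells without the drug (log2 difference 0.67; limma, adjusted p = 2.28e-06) and under it (0.75; limma, adjusted p = 1.85e-07). GK5, of the glycerol kinase family, changed by -0.30 and -0.69 log2 units with metformin in vector and GPD1 cells (limma, adjusted p = 0.016 and 6.55e-05), of which the first did not pass with median-ratio or upper-quartile factors (-0.15 and -0.14). GPD1L, a relative of GPD1, rose in vector cells from 1.13 to 2.29 FPKM (limma, adjusted p = 0.0262) and stood at 1.19 and 1.39 FPKM in GPD1 cells (limma, adjusted p = 0.672). The glycolytic gene ALDOA fell by 0.25 log2 units in vector cells (limma, adjusted p = 3.55e-04), while TPI1 did not pass there (-0.23; limma, adjusted p = 0.102), and ALDOA did not pass with median-ratio or upper-quartile factors (-0.00138 and 0.00766).

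Of 6 tested triacylglycerol genes 2 rose and 1 fell in vector cells and 2 rose and 2 fell in GPD1 cells. The risen genes were PNPLA2 and MGLL, which encode lipases for triacylglycerol and monoacylglycerol. MGLL rose by 0.85 log2 units in vector cells and 0.46 in GPD1 cells. PNPLA2 rose from 13.8 to 25.2 FPKM in vector cells and from 15.5 to 22.7 FPKM in GPD1 cells (limma, adjusted p = 3.89e-08 and 1.71e-06). PLIN3, a lipid droplet coat protein, fell from 16.3 to 12.6 FPKM in vector cells and from 14.1 to 9.32 FPKM in GPD1 cells (limma, adjusted p = 0.00293 and 1.68e-04), but with upper-quartile factors neither fall passed (-0.11 and -0.10), nor did that in vector cells with median-ratio factors (-0.12). ABHD5, the activator of PNPLA2, fell in GPD1 cells (log2 change -0.27; limma, adjusted p = 0.0347), but not with median-ratio or upper-quartile factors (-0.04 and 0.06). HILPDA, an inhibitor of PNPLA2, did not pass in either population (limma, adjusted p = 0.281 and 0.21). DGAT1, which makes triacylglycerol from diacylglycerol, stood at 4.79 and 4.82 FPKM in vector cells without and with the drug on the deposited scale (limma, adjusted p = 0.975).

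Of 5 tested genes of the CDP-diacylglycerol branch 2 rose and 3 fell in vector cells, and 1 rose and 1 fell in GPD1 cells. CDS2, which makes CDP-diacylglycerol from phosphatidate, fell from 8.61 to 7.15 FPKM in vector cells and from 8.29 to 6.29 FPKM in GPD1 cells (limma, adjusted p = 0.00355 and 2.64e-04). Neither fall of CDS2 passed with median-ratio factors (-0.01 and -0.06) or upper-quartile factors (-0.00596 and 0.07). Toward cardiolipin, PGS1 and PTPMT1 changed by 0.54 and -0.49 log2 units in vector cells (limma, adjusted p = 8.68e-04 and 6.1e-04) and did not pass in GPD1 cells, at -0.24 and -0.01 (limma, adjusted p = 0.0685 and 0.934). Cardiolipin synthase (CRLS1) fell from 6.27 to 5.03 FPKM in vector cells and rose from 6.12 to 7.18 FPKM in GPD1 cells (interaction 0.47 log2 units; limma, adjusted p = 2.89e-04). The fall of CRLS1 in vector cells did not pass with median-ratio or upper-quartile factors (-0.06 and -0.05). CDIPT, which makes phosphatidylinositol, rose in vector cells from 4.06 to 5.199 FPKM (limma, adjusted p = 0.01002).

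Of 12 tested genes for phosphatidylcholine, phosphatidylethanolamine and phosphatidylserine, 5 rose and 3 fell in vector cells and 3 rose and 6 fell in GPD1 cells. SELENOI, the ethanolamine phosphotransferase, rose from 5.73 to 7.09 FPKM in vector cells and fell from 8.66 to 5.13 FPKM in GPD1 cells, an interaction of -0.92 log2 units (limma, adjusted p = 5.3e-06). PCYT1A, the rate-limiting enzyme of phosphatidylcholine synthesis, fell from 5.34 to 2.12 FPKM in GPD1 cells (limma, adjusted p = 1.54e-06). Its log2 change in vector cells was -0.21 (limma, adjusted p = 0.0547). PCYT2, its counterpart for phosphatidylethanolamine, fell in both populations. It went from 1.23 to 0.733 FPKM in vector cells (limma, adjusted p = 6.39e-04) and from 1.62 to 0.620 FPKM in GPD1 cells (limma, adjusted p = 4.75e-06). Choline kinase (CHKA) was higher in GPD1 than in vector cells without the drug, at 7.22 against 4.73 FPKM (limma, adjusted p = 0.00189), and under it, at 5.60 against 4.45 FPKM (limma, adjusted p = 0.018). PISD, which makes phosphatidylethanolamine from phosphatidylserine, was lower in GPD1 than in vector cells under the drug, at 0.716 against 1.65 FPKM (limma, adjusted p = 5.85e-05). Among 8 lysophospholipid remodelling genes 3 rose and 4 fell in vector cells and 3 rose and 2 fell in GPD1 cells. LPCAT3 fell from 8.25 to 2.05 FPKM in vector cells and from 7.41 to 3.33 FPKM in GPD1 cells (limma, adjusted p = 1.05e-09 and 5.67e-08). LPGAT1 rose from 22.6 to 42.8 FPKM and from 26.7 to 35.0 FPKM in the same populations (limma, adjusted p = 1.93e-08 and 2.02e-05). MBOAT2 was higher in GPD1 than in vector cells under metformin, at 5.80 against 3.38 FPKM (limma, adjusted p = 5.32e-06), and without it, at 4.99 against 4.12 FPKM (limma, adjusted p = 0.0224).

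Of 5 tested diacylglycerol kinase genes, which turn diacylglycerol back into phosphatidate, 3 rose and 2 fell in vector cells and 0 rose and 3 fell in GPD1 cells. DGKD rose from 11.6 to 13.8 FPKM in vector cells and fell from 11.2 to 7.23 FPKM in GPD1 cells (interaction -0.79 log2 units; limma, adjusted p = 1.16e-04). The rise of DGKD did not pass when mitochondrial genes were dropped from the totals (0.14), nor the fall with upper-quartile factors (-0.13). DGKE and DGKH rose in vector cells by 0.50 and 0.62 log2 units (limma, adjusted p = 0.0226 and 0.00141). DGKQ and DGKZ fell there by 0.32 and 0.28 log2 units (limma, adjusted p = 0.00288 and 0.00254), but not with median-ratio or upper-quartile factors. In GPD1 cells DGKE and DGKZ changed by -0.46 and -0.31 log2 units (limma, adjusted p = 0.0322 and 0.00138), and neither passed with median-ratio or upper-quartile factors. Of 3 tested acyl-CoA synthetases, which activate the fatty acids that these acyltransferases use, 2 rose and 1 fell in vector cells and 2 rose and 0 fell in GPD1 cells. ACSL3 fell in vector cells from 12.7 to 8.05 FPKM, while it rose from 17.5 to 20.6 FPKM in GPD1 cells (interaction 0.83 log2 units; limma, adjusted p = 8.82e-06). ACSL4 rose in both, from 10.4 to 19.3 FPKM and from 9.05 to 16.0 FPKM (limma, adjusted p = 5.58e-07 and 1.44e-06), and ACSL1 in vector cells from 2.22 to 2.76 FPKM (limma, adjusted p = 0.0133), but not with mitochondrial genes dropped from the totals (0.15).

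Of 10 tested genes that regulate these steps 5 rose and 1 fell in vector cells, where 31.3% of all genes rose and 43.3% fell, and 8 rose and 0 fell in GPD1 cells, where 26.1% rose and 48% fell. This list, too, was chosen with earlier results of these data known, so the contrast is a description. TFE3, a transcription factor of lysosomal and lipid genes, rose from 14.7 to 43.6 FPKM and from 19.6 to 46.7 FPKM (limma, adjusted p = 2.6e-10 and 1.55e-09). SREBF2, which drives sterol synthesis genes, rose from 9.89 to 22.8 FPKM and from 10.8 to 18.03 FPKM (limma, adjusted p = 9.69e-08 and 5.67e-06). SREBF1, whose product activates GPAM transcription in other tissues, fell from 14.4 to 12.6 FPKM in vector cells (limma, adjusted p = 0.00735) and rose from 15.5 to 18.4 FPKM in GPD1 cells (limma, adjusted p = 0.00153). The fall of SREBF1 turned to 0.05 and 0.06 with median-ratio and upper-quartile factors and did not pass. PPARG was lower in GPD1 than in vector cells without the drug, at 2.08 against 3.68 FPKM (limma, adjusted p = 3.96e-04), and under it, at 3.97 against 5.82 FPKM (limma, adjusted p = 5.68e-04). With metformin PPARG rose in vector and GPD1 cells (log2 changes 0.54 and 0.68; limma, adjusted p = 1.04e-04 and 1.78e-05). BSCL2, the seipin of lipid droplet formation, was higher in GPD1 than in vector cells under the drug, at 4.56 against 3.18 FPKM (limma, adjusted p = 2.23e-04). CTDNEP1, the phosphatase that dephosphorylates lipins, stood at 12.4 and 12.5 FPKM in vector cells without and with the drug (limma, adjusted p = 0.947) and rose from 11.96 to 14.6 FPKM in GPD1 cells (limma, adjusted p = 0.0187), but not when mitochondrial genes were dropped from the totals (0.19).

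**Figure D5:**
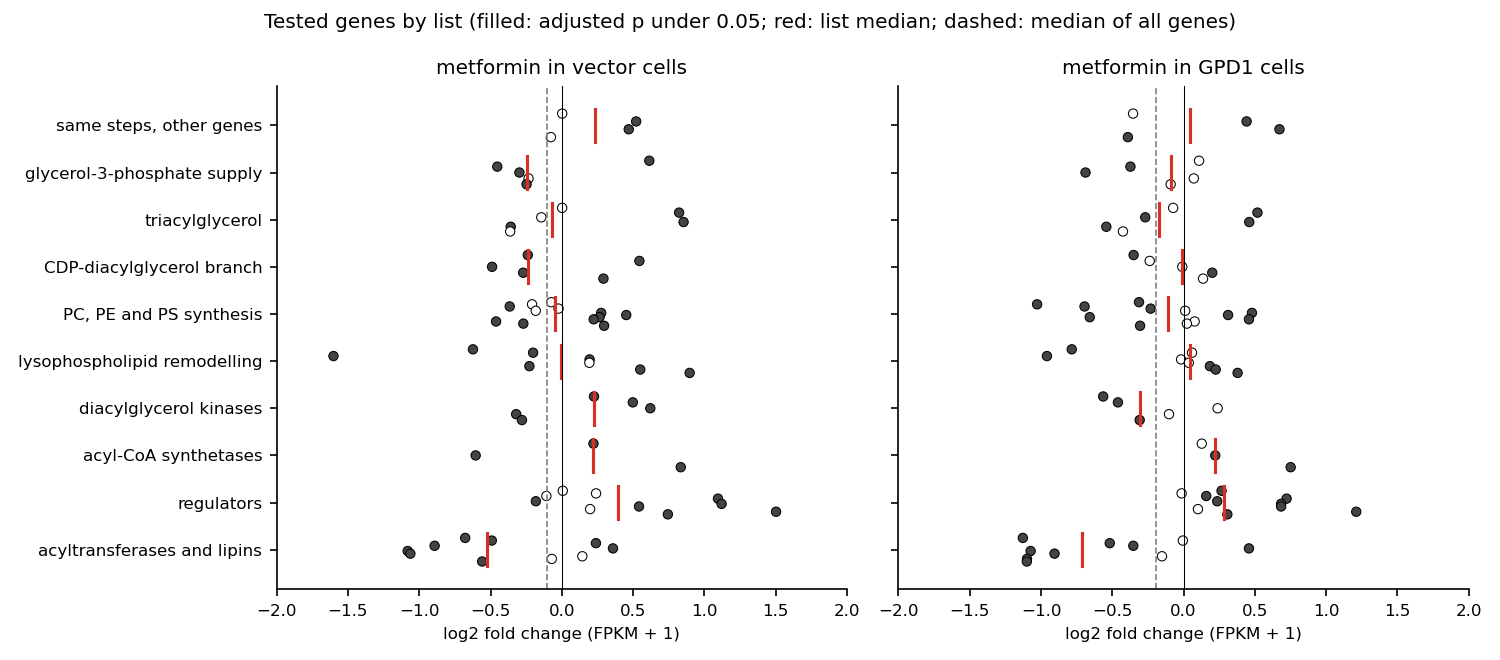
Log2 change with metformin (horizontal axis) in vector cells and in GPD1 cells for every tested gene of the 9 pathway lists and of the 10 acyltransferases and lipins. Filled points passed at an adjusted p under 0.05, red marks are list medians and the dashed line is the median of all tested genes; the median of the acyltransferases and lipins was -0.52 and -0.71.

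The genes whose course over the 12 libraries was most like each of the 10 were sought among 5280 genes averaging 5 FPKM or more, by Pearson's r of log2(FPKM + 1). The libraries fall into 4 groups, so a high r mostly reflects the differences between group means, and it is given as a description. For LPIN2 the closest was RXRA (r = 0.978), and for GPAT3 they were NRP2 (r = 0.976) and FH (r = 0.974). For GPAT4 they were TXLNA (r = 0.978) and ACTR5 (r = 0.977), and for GPAM PAFAH1B1 (r = 0.992) and RBM15B (r = 0.991). AGPAT1 was closest to IARS2 (r = 0.995) and HKDC1 (r = 0.994), AGPAT2 to MAPRE3 (r = 0.986) and GRAMD1A (r = 0.985), AGPAT3 to SHCBP1 (r = 0.997) and MCM3 (r = 0.997), and AGPAT5 to PAK1IP1 (r = 0.987) and DENND5B (r = 0.985). LPIN3 was closest to NUAK1 (r = 0.953) and CRIPT (r = 0.948), and LPIN1, whose group means differed least, to INO80B-WBP1 (r = 0.832) and BIRC6 (r = 0.812).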

How the data were processed

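The authors deposited 1 table of 58302 genes by 12 A549 libraries. The deposited values were read as FPKM (RPKM cannot be told apart), because low values multiplied by GENCODE 29 merged exon length fell on whole steps of 1 fragment, with a tolerance of 0.02, for 63.3% to 69.5% of the genes scored (at most 10 steps). CASAVA 1.8, HISAT2 2.1.0, edgeR and GRCh38 are named in, and credited per, the submitters' processing notes. The sources used here do not give the quantifier, its annotation or the use of strand. The series also holds 12 libraries of 786-O cells, not used here.

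Libraries were grouped by their titles. The 12607 genes averaging 1 FPKM or more across libraries entered 1 fit of log2(FPKM + 1) by limma 3.58.1 under R 4.3.3, which had 4 group means, a trended prior and 8 residual degrees of freedom. Benjamini-Hochberg adjustment ran over all of them. The plan allowed for counts with edgeR, which these values do not permit. On simulated data for GPD1 under metformin (12607 genes, 50 per fold size) limma recovered 72%, 78%, 92% and 100% of changes of 1.5, 2, 3 and 4 times, with 8 false calls among 179. There few genes changed, all upward, with independent normal noise and no shift of scale. In the data 60% of tested genes passed for this comparison, so these rates need not hold for it. The genes and lists were chosen with earlier results of these data known. By rule the 10 genes were always named, along with GPD1, the 2 list genes with the smallest p per comparison or all genes of lists with up to 6 tested, and the 2 closest genes by r, of which 1 is not reported here. CTDNEP1, SREBF1 in the metformin comparisons, GPAT2 and AGPAT4 were added for their role, and not every comparison of a list gene is printed. Shares of a step are linear FPKM shares. Alternatives were other scalings, no filter, a pseudocount of 0.1, only the groups compared, a replicate block, a length trend removed (natural spline, 5 degrees of freedom) and each library left out. Totals without mitochondrial genes were taken on FPKM times length. Promoter windows are RefSeq's, and exons are GENCODE 29's.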

Additional observations from a re-analysis of the deposited data

Results flagged for a closer look

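The response to metformin differed between GPD1 and vector cells for 5 of the 10 genes by the interaction test of limma, in log2 units, as the change in GPD1 cells minus that in vector cells. The interactions were -1.03 for LPIN2, -0.76 for GPAT4, -0.45 for GPAM, 0.54 for AGPAT1 and 0.49 for GPAT3. All 5 passed in each of the 19 alternatives fitted for the interaction, with a highest adjusted p of 3.1e-05 for LPIN2, 6.7e-04 for GPAT4, 0.046 for GPAM, 6.15e-04 for AGPAT1 and 0.0287 for GPAT3. As 45.9% of all tested genes also passed, these calls set the 5 genes apart from the table as a whole no further than that. On the deposited scale GPAT4 was the gene of the 5 that passed in opposite directions in the populations, while with upper-quartile factors its fall in GPD1 cells did not pass (-0.12). With median-ratio and upper-quartile factors GPAT3 passed as lower in vector cells (-0.27 and -0.26) and as higher in GPD1 cells (0.30 and 0.44), and LPIN2 as higher in vector cells (0.15 and 0.16) and as lower in GPD1 cells (-0.81 and -0.68).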

How the results depend on the processing

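Under the alternatives other than left-out libraries, 353 log2 values of the 10 genes kept their direction and their side of the threshold, 20 turned in direction, 12 no longer passed and 5 newly passed. With a library left out 564 kept both, 16 turned, 15 no longer passed and 5 newly passed. With median-ratio, upper-quartile factors and the length trend removed, in this order, the turned values were 0.15, 0.16 and 0.10 for LPIN2 with metformin in vector cells, 0.30, 0.44 and 0.20 for GPAT3 and 0.0685, 0.16 and 0.24 for LPIN1 with metformin in GPD1 cells, and 0.0440, 0.11 and 0.16 for AGPAT3 and 0.0451, 0.13 and 0.12 for LPIN3 with GPD1 under metformin. With the first 2 of these AGPAT3 turned to 0.00251 and 0.00943 for GPD1 without metformin, with the last 2 LPIN1 turned to 0.0443 and 0.0509 for GPD1 under metformin, and with upper-quartile factors AGPAT1 turned to 0.10 with metformin in GPD1 cells. With a library left out the turned results ranged from -0.12 to 0.0652 for GPAT3 with metformin in GPD1 cells, -0.0283 to 0.0189 for AGPAT3 with GPD1 without metformin, -0.0422 to 0.0270 for AGPAT3 and -0.10 to 0.0727 for LPIN3 with GPD1 under metformin and -0.0317 to 0.0375 for the AGPAT3 interaction. Which scale is right was not tested. Without a filter 14315 of 35437 genes passed for metformin in vector cells, against 9411 of 12607. Leaving out each library in turn, 3 to 6 of the 10 genes passed for GPD1 without metformin (3 without GPD1 untreated replicate 2, 6 in the full fit). LPIN3 passed the interaction with any 1 of 4 libraries left out (adjusted p of 0.0293 to 0.0433) and LPIN1 without GPD1 metformin replicate 1 (adjusted p = 0.0403). Shares computed from log2 levels were 2.64% for GPAM and 73.5% for GPAT3 in treated GPD1 cells and 12.6% for LPIN1 in untreated GPD1 cells. Same-numbered libraries did not deviate together (r from -0.07 to 0.06, and 5 of 18 correlated best with their own number). No sign of pairing by number was seen, but the labels do not settle it and this check cannot exclude it. With a replicate block 8, 8, 5, 7 and 5 of the 10 genes passed in the 5 comparisons, and 9333, 9253, 2374, 7446 and 5643 of all genes, and AGPAT2 for GPD1 without metformin did not pass (adjusted p = 0.0578). GPAM in treated GPD1 cells rests on 50 to 54 fragments a library, which limits the precision of its fold.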
